A study of Mus musculus with 92 samples.

Results

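The Fanconi, homologous recombination and checkpoint kinase genes described here are 42 genes named by symbol among 56953 gene IDs in the deposited tables. They were listed by function, but with earlier results of these data known. They comprise 10 Fanconi core complex genes, 4 genes of the FANCI-FANCD2 step, 5 genes around BRCA1 and BRCA2 and 2 RAD54 translocases. Also listed are the 5 genes Rad51b, Rad51c, Rad51d, Xrcc2 and Xrcc3, and 3 nuclease genes. A further 4 belong to the BLM complex and 4 to break sensing and resection. The last 5 are checkpoint genes, the kinase genes Atm, Atr, Chek1 and Chek2 with Atrip, which encodes a partner of ATR. All 42 were found by symbol and all 42 passed the filter on low counts in both assays. The samples were mouse embryonic stem cells of the B6 line, grown with LIF and the inhibitors PD0325901 and CHIR99021. Both alleles of a GABP subunit carried a dTAG degron, through which the small molecule dTAG-13 directs the tagged protein to degradation. GABPA is the DNA-binding subunit of the transcription factor GABP and belongs to the ETS family, while GABPB1 and GABPB2 are partner subunits. RNA-seq was made of the GABPA dTAG/dTAG line, the GABPB1 and GABPB2 dTAG/dTAG line and the GABPB1 dTAG/dTAG line, each treated for 12 h with 500 nM dTAG-13 or with DMSO. SLAM-seq, in which 500 µM 4-thiouridine marks newly made RNA with T-to-C conversions, was made of the GABPA line after 1, 2, 4 and 12 h. The DMSO libraries titled as 2 to 4 h served as the control of both the 2 h and the 4 h samples. In all, 26 libraries in 13 groups of 2 were used, and the DMSO controls carried the same tagged alleles as the treated cells. The series' design text calls the duplicates biological, but the labels do not say whether they came from separate cultures or whether a line is 1 clone, so p-values measure the spread between these samples, which may be technical.

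The Fanconi pathway removes DNA interstrand crosslinks that block replication forks. A core complex attaches ubiquitin to the FANCI-FANCD2 clamp at a stalled fork, nucleases then cut the lesion free, and the break that results is mended by homologous recombination, in which BRCA1, BRCA2 and their helpers copy the lost stretch from an intact sister DNA molecule. The kinases ATM and ATR, with CHK1 and CHK2 below them, sense the damage and hold the cell cycle. Embryonic stem cells divide fast, spend much of their cycle in S phase and are known for high expression of recombination genes.

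Promoters are shown because the tagged factor recognises the ETS core GGAA, and because these genes had the largest falls after loss of GABPA among those with a promoter entry. Of the 42 genes, 32 had an entry of 250 bases before to 50 bases after the annotated start (RefSeq, GRCm38.p6). Each is written 5′ to 3′ on the strand of its gene, and capitals mark CGGAAG on either strand.
Fance, subunit that joins the core complex to FANCD2, chr17:28313280-28313579, plus strand: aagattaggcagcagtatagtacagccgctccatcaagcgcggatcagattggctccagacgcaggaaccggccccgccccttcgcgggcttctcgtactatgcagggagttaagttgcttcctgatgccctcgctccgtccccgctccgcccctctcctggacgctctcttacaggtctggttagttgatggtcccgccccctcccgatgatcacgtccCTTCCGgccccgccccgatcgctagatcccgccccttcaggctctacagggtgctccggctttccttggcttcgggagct
Fanci, partner of FANCD2 in the clamp, chr7:79392088-79392387, plus strand: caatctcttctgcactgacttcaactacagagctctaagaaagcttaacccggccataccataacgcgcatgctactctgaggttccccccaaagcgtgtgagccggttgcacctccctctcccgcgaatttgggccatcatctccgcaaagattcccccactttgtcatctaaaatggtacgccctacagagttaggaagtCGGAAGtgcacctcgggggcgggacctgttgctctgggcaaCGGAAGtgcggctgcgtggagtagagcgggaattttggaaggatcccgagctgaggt
Fancf, adaptor subunit of the core complex, chr7:51862218-51862517, minus strand: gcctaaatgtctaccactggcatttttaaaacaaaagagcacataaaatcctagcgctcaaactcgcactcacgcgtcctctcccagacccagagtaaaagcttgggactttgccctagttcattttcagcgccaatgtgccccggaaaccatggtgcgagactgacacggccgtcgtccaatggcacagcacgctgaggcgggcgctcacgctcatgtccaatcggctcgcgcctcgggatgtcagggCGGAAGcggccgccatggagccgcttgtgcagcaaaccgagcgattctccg
Mus81, catalytic nuclease subunit, chr19:5488330-5488629, minus strand: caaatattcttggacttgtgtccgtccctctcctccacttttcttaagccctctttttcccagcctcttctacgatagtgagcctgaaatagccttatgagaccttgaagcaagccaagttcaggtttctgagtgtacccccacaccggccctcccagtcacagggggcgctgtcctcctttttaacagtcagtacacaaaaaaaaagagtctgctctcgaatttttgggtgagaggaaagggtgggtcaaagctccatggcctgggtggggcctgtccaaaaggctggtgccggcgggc
In Fance the match lay on the opposite strand, with its first base 30 bases before the start, and in Fanci 2 matches began 48 and 7 bases before it. In Fancf 1 match began 1 base before the start and ran past it. Mus81 held none in this window. Nor did Fancl, the next largest fall among genes with an entry, whose promoter is not printed here.

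Letter matches to the ETS motif were counted over all 32 promoters and over the 27025 genes of the table, on both strands. The motifs CCGGAAG and CCGGAAGT were searched first, and CGGAAG, which is contained in both, was added after the promoters had been read. CCGGAAG was in 9 of 32 member promoters (28.1%), against 9.93% of all promoters. The longer CCGGAAGT was in 4 of 32 (12.5%), against 4.31% of all. CGGAAG was in 16 of 32 (50%), against 18.8% of all. The sets are unlike, since all members passed the filter on low counts and the 27025 genes include ones that did not. A share over the genes tested was not counted. By response to loss of GABPA, the shares are a description over few genes. CCGGAAG was in 4 of 13 members that fell (30.8%), in 1 of 3 that rose (33.3%) and in 4 of 16 that were not called (25%). The 4 promoters among those that fell belong to Fance, Wdr48, Brip1 and Eme1. CCGGAAGT was in 15.4% of the members that fell, 0% of those that rose and 12.5% of those not called. CGGAAG was in 46.2% of the members that fell, 33.3% of those that rose and 56.2% of those not called. These are matches of letters, and binding was not tested here.

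RNA-seq libraries held 15.96 to 32.09 M counts, and those of SLAM-seq had totals of 11.48 to 30.69 M reads, with conversions in 0.9366 to 4.249 M. The libraries carried the markers of their label, with 11100 to 12900 TPM summed over 16 pluripotency genes, none of them under 1 TPM in any group. Fibroblast markers summed to 2.95 to 8.09 TPM over 10 genes, and Col3a1, Lum and Fap were at 0 in the dTAG-13 group of the GABPA line. The 14 lineage markers summed to 27.2 to 115 TPM. The tagged subunits were not lowered in RNA, and since dTAG-13 acts on the protein, RNA does not check the labels. Gabpa in the GABPA line had 64.6 and 70 CPM (counts scaled to a common library total) with dTAG-13, against 48.9 and 46.4 CPM with DMSO. Gabpb1 had 54.1 and 54.4 CPM in the GABPB1 line with dTAG-13, against 32.8 and 32 CPM with DMSO. In the line with both tags Gabpb1 had 64.4 and 62.2 CPM with dTAG-13, against 30.6 and 36.8 CPM with DMSO, and Gabpb2 had 63 and 58.8 CPM with dTAG-13, against 44.9 and 49.7 CPM with DMSO. Replicates of the DMSO group of the line with both tags had a chi-square divided by its degrees of freedom of 16.13, against 1.964 to 6.558 in the other groups.

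Per transcript length, these genes were expressed above the middle of the transcriptome. In the GABPA line with dTAG-13 their median level was 12.1 TPM, against 6.42 TPM over all genes tested, and with DMSO it was 13.7 TPM, against 6.78 TPM. Usp1, the deubiquitinase that resets the FANCI-FANCD2 clamp, was highest in both groups (53.2 TPM with dTAG-13 and 60.5 TPM with DMSO). Brip1, a helicase that binds BRCA1, was lowest in both (2.45 TPM with dTAG-13 and 3.2 TPM with DMSO).

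Loss of GABPA for 12 h lowered part of the group and raised a smaller part. Of the 42 genes, 16 fell (38.1%) and 5 rose (11.9%), where 21.9% of all genes tested fell and 24.6% rose at an adjusted p under 0.05 (quasi-likelihood test of edgeR, Benjamini-Hochberg adjusted over 16396 genes, as all adjusted p of RNA-seq here). The median log2 fold change was -0.14 over the 42 genes and 0.06 over all genes. It was -0.07 with dTAG-13 replicate 1 omitted and -0.21 with dTAG-13 replicate 2 omitted. In all 21 called genes the dTAG-13 and DMSO libraries did not overlap. The share of called genes without overlap was not counted over all genes, so this describes the calls and adds no evidence to them. With only genes of an average log2 CPM of at least 3 in the fit, the split was 15 lower and 8 higher and the median was -0.02. The rises gained were those of Fancc (0.25, adjusted p = 0.026), Atrip (0.25, 0.0149) and Mre11a (0.18, 0.0308), which were not called in the main fit. In bulk libraries, fewer cells of a type and less RNA per cell cannot be told apart.

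**Figure D1:**
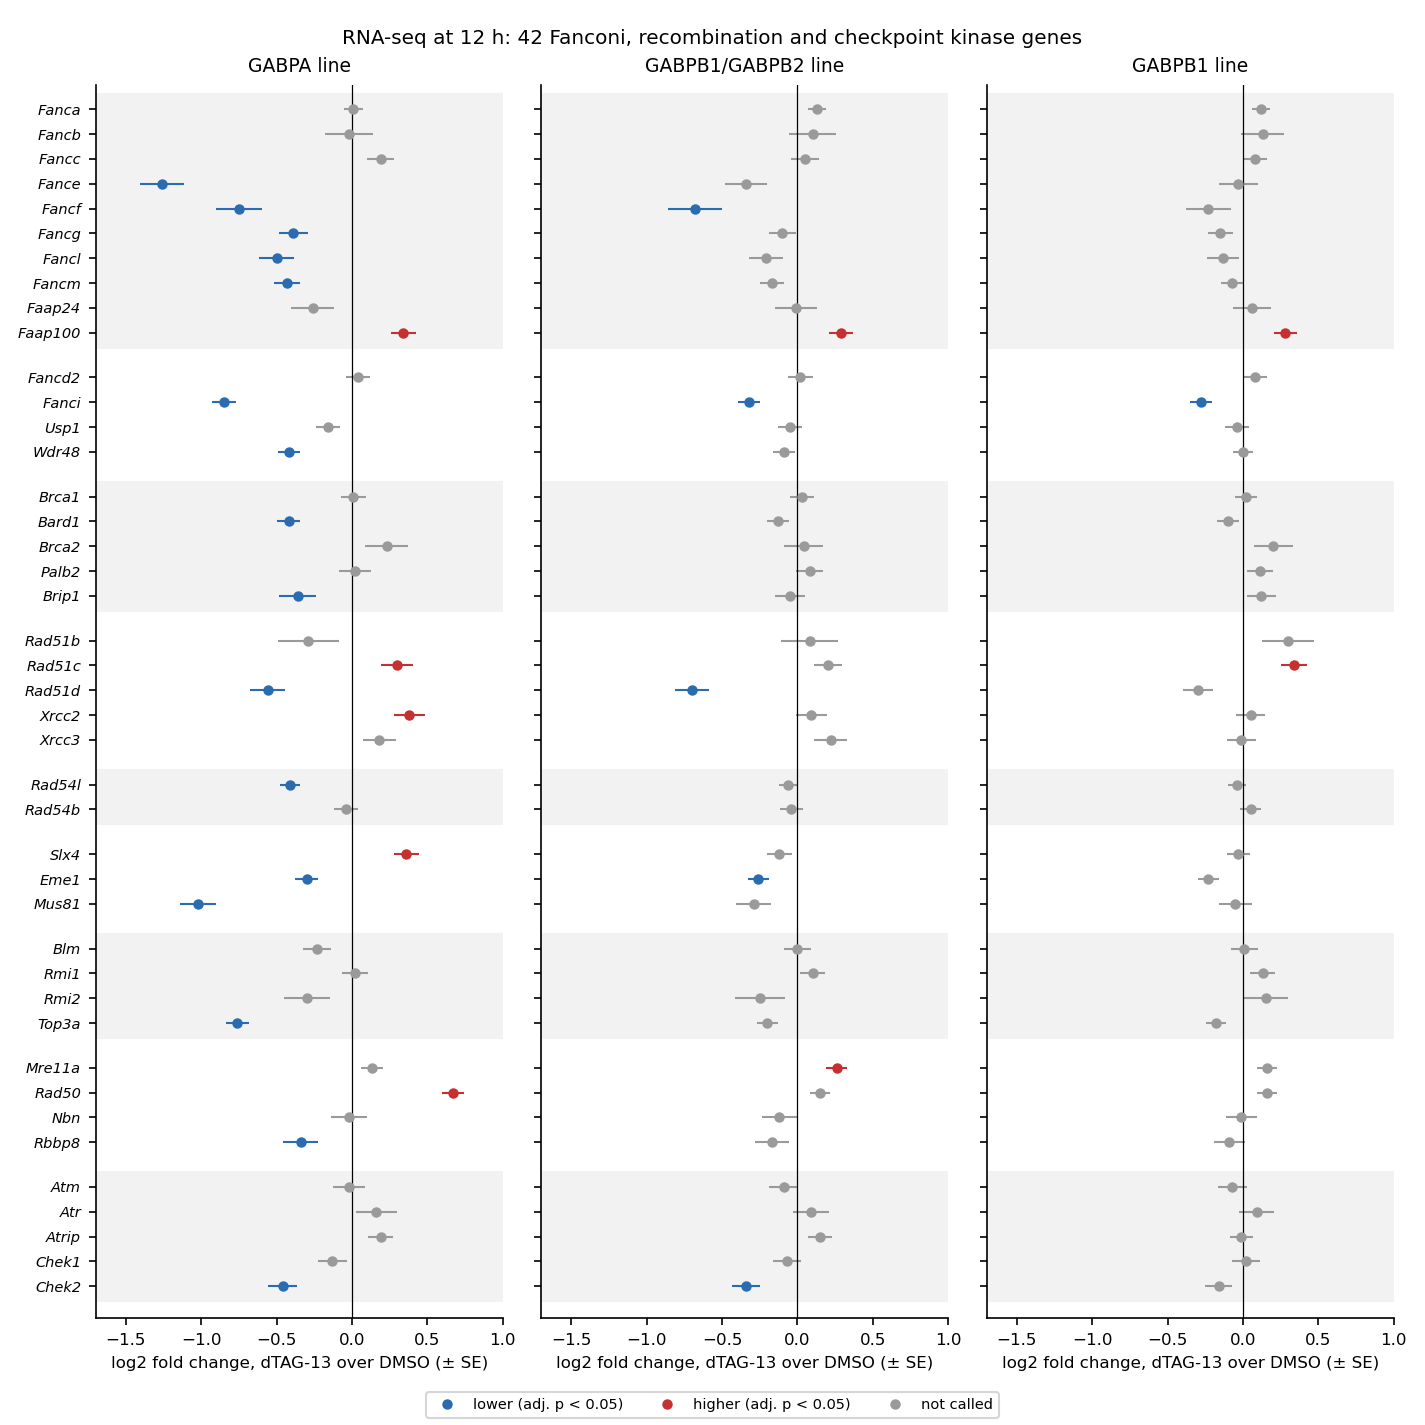
RNA-seq log2 fold change of each of the 42 genes at 12 h, dTAG-13 over DMSO, in the GABPA, GABPB1/GABPB2 and GABPB1 lines (points) with its standard error (bars). Grey and white bands mark the roles, from the core complex at the top to the checkpoint genes at the bottom. In the GABPA line 16 genes were lower (blue) and 5 higher (red), against 5 and 2 in the GABPB1/GABPB2 line and 1 and 2 in the GABPB1 line.

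The Fanconi core complex, the longest of the role lists, held the largest fall, with 5 of 10 genes lower and 1 higher (median log2 fold change -0.32). Counts by role, here and below, stand beside 21.9% of all genes lower and 24.6% higher. They rest on few genes and were not tested against those shares. Fance had 13.4 and 15.2 CPM with dTAG-13, against 31.4 and 36.9 CPM with DMSO. All dTAG-13 libraries lay below all DMSO libraries, with a log2 fold change of -1.26 ± 0.144 (SE, adjusted p = 1.55e-06). Fancf had 6.26 and 5.07 CPM with dTAG-13, against 9.45 and 9.64 CPM with DMSO (-0.75 ± 0.155, adjusted p = 0.000686). Fancl, the ubiquitin ligase subunit, had 14.5 and 19.5 CPM with dTAG-13, against 24.4 and 23.8 CPM with DMSO (-0.50 ± 0.118, adjusted p = 0.00208). Its dTAG-13 libraries lay apart from each other and still below both DMSO libraries. Fancm, the translocase that anchors the complex on DNA, had 58.3 and 67.8 CPM with dTAG-13, against 85.4 and 84.4 CPM with DMSO (-0.43 ± 0.0848, adjusted p = 0.000499). Fancg fell by 0.39 on the log2 scale. Faap100, a partner of the ligase subunit, rose by 0.34, but with DMSO replicate 1 omitted it had 0.24 and was not called (adjusted p = 0.0512). Fanca, Fancb, Fancc and Faap24 were not called, with log2 fold changes between -0.26 and 0.19.

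Of the FANCI-FANCD2 step, 2 of 4 genes fell. Fanci had 58.4 and 64.7 CPM with dTAG-13, against 109 and 114 CPM with DMSO (-0.85 ± 0.0789, adjusted p = 1.24e-07), the smallest p of the group. Its partner Fancd2 had 107 and 116 CPM with dTAG-13, against 103 and 114 CPM with DMSO (0.04 ± 0.0812), so the libraries of its groups overlapped. Both proteins form the clamp together, but the RNA of Fanci alone passed the test, and the difference between these genes was not tested. Wdr48, which activates USP1, fell by 0.42. Usp1 was not called (-0.16, adjusted p = 0.121), except with dTAG-13 replicate 2 omitted (-0.26, 0.0398).

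Among BRCA1, BRCA2 and their partners, 2 of 5 genes fell. Brca1, which directs break ends to recombination, had 96.2 and 111 CPM with dTAG-13, against 100 and 106 CPM with DMSO (0.01 ± 0.0812). Bard1, its partner in a ubiquitin ligase, fell by 0.42 ± 0.0771 on the log2 scale (adjusted p = 0.000238), with 49 and 56.3 CPM with dTAG-13 against 69.4 and 71.6 CPM with DMSO. Brip1 fell by 0.36. It was not called with DMSO replicate 2 omitted (-0.30, adjusted p = 0.139) or with dTAG-13 replicate 1 omitted (-0.24, adjusted p = 0.203). Brca2, a mediator of recombination, and Palb2, which links it to BRCA1, were not called (0.23 and 0.02). Brca2 was called higher with dTAG-13 replicate 1 omitted (0.48, adjusted p = 0.00513) and without the filter on low counts (0.21, adjusted p = 0.0437).

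Rad51b, Rad51c, Rad51d, Xrcc2 and Xrcc3, whose products act together in recombination, went in both directions, with 1 of 5 lower and 2 higher. Rad51d had 17.3 and 14.1 CPM with dTAG-13, against 22.8 and 23.5 CPM with DMSO (-0.56 ± 0.114, adjusted p = 0.000612). Xrcc2, which partners RAD51D, rose by 0.38, with 26.1 and 31.7 CPM with dTAG-13 against 22.4 and 22 CPM with DMSO. With dTAG-13 replicate 2 omitted it had 0.23 and was not called (adjusted p = 0.117). Rad51c rose by 0.30 with an adjusted p of 0.0294, and this was the least steady call of the group. The adjusted p was 0.189 with DMSO replicate 1 omitted, 0.113 and 0.0697 with dTAG-13 replicate 1 or 2 omitted, and 0.0528 by DESeq2. Rad51b and Xrcc3 were not called, except Xrcc3 with DMSO replicate 2 omitted (0.35, adjusted p = 0.0383). Of the translocases that help strand invasion, Rad54l fell by 0.41 ± 0.0661 (adjusted p = 7.81e-05) and Rad54b was not called (-0.04).

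Of the 3 nuclease genes, 2 fell and 1 rose. Mus81 had 9.72 and 8.49 CPM with dTAG-13, against 19.1 and 17.8 CPM with DMSO (-1.02 ± 0.119, adjusted p = 2.15e-06), the second largest fall. Eme1, a partner of MUS81 in the nuclease, fell by 0.30, but with dTAG-13 replicate 2 omitted it had -0.22 and was not called (adjusted p = 0.0518). Slx4, the scaffold that holds several nucleases, rose by 0.36 ± 0.0818 (adjusted p = 0.00151). Of the BLM complex, which unlinks joined DNA molecules, Top3a was the 1 of 4 genes called. This topoisomerase gene had 30.3 and 30.7 CPM with dTAG-13, against 49.8 and 53.1 CPM with DMSO (-0.76 ± 0.0743, adjusted p = 2.6e-07). Blm, Rmi1 and Rmi2 were not called (-0.23, 0.02 and -0.30). Blm was called lower with dTAG-13 replicate 2 omitted (-0.33, adjusted p = 0.0294), without the filter on low counts (-0.25, 0.00873), with the 4 libraries fitted alone (-0.27, 0.0206) and with a replicate block (-0.23, 0.0429).

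Among break sensing and resection genes, Rad50 had the largest rise of the group. It had 69.7 and 71.6 CPM with dTAG-13, against 42.7 and 46.1 CPM with DMSO (0.67 ± 0.072, adjusted p = 7.53e-07). Mre11a and Nbn, whose products form the MRN complex with RAD50, were not called (0.13 and -0.02). Rbbp8, which starts resection of break ends, fell by 0.34. The adjusted p was 0.0892 and 0.0729 with DMSO replicate 1 or 2 omitted, and 0.245 with dTAG-13 replicate 1 omitted. Of the 5 checkpoint genes, Chek2 was the 1 called. It had 32.4 and 39.4 CPM with dTAG-13, against 49.9 and 48.9 CPM with DMSO (-0.46 ± 0.0966, adjusted p = 0.000871). Atm, Atr, Atrip and Chek1 were not called, with log2 fold changes between -0.13 and 0.19, although Atr was called with dTAG-13 replicate 1 omitted (0.38, adjusted p = 0.0281).

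Of the 42 genes, 25 overlap a named neighbour on the other strand. Overlaps with gene IDs that have no symbol were not examined. Since no source used here gives the handling of strands, reads of such pairs cannot be told apart. Mus81 overlaps Efemp2 (-0.83), Wdr48 overlaps Gorasp1 (-0.76), Fancf overlaps Gas2 (-1.02) and Eme1 overlaps Mrpl27 (-3.72), all lower after loss of GABPA. Fancl overlaps Vrk2 (0.69, adjusted p = 0.00281) and Faap24 overlaps Rhpn2 (0.41, adjusted p = 0.00766), both higher. Fanci overlaps Polg, which was not called (-0.11, adjusted p = 0.181). Top3a, Rad51d, Rad50, Chek2 and Fancg overlap no other named gene of the tables.

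**Figure D2:**
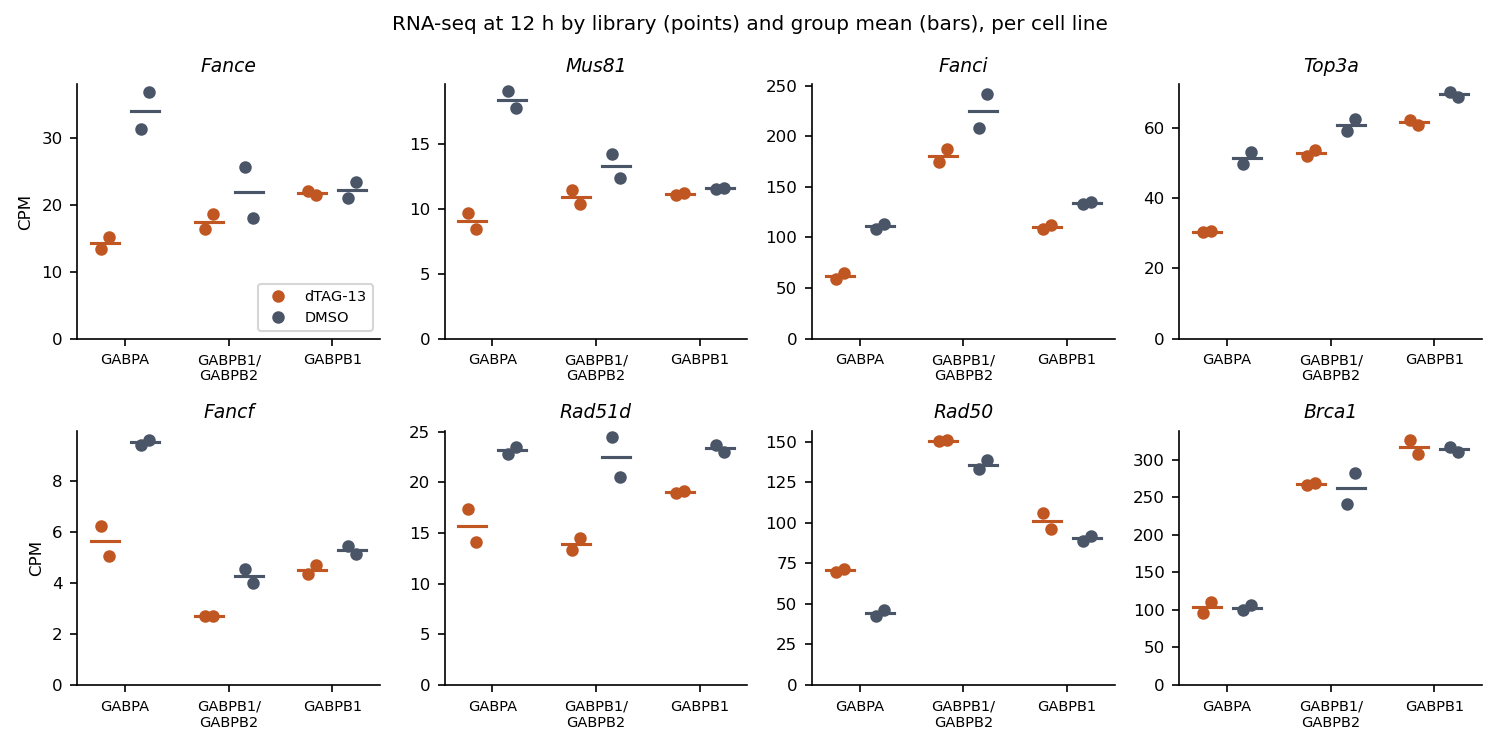
RNA-seq CPM of 8 genes in each library (points) with the mean of each group (bars) at 12 h, dTAG-13 left of DMSO within each line, each panel on its own axis from 0. In the GABPA line the dTAG-13 libraries lay below the DMSO libraries for Fance, Mus81, Fanci, Top3a, Fancf and Rad51d, above them for Rad50, and overlapped them for Brca1.

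Loss of both GABPB subunits changed fewer of these genes. In the GABPB1/GABPB2 line 5 of 42 fell (11.9%) and 2 rose (4.76%), where 9.26% of all genes fell and 3.53% rose. The shares lie near those of all genes. Rad51d had 13.3 and 14.5 CPM with dTAG-13, against 24.5 and 20.6 CPM with DMSO (-0.70 ± 0.112, adjusted p = 0.000294). It was the only 1 of the 7 calls that held with every alternative and every library left out. Fancf had 2.7 and 2.69 CPM with dTAG-13, against 4.57 and 4.02 CPM with DMSO (-0.68 ± 0.18, adjusted p = 0.0182). Fanci had 175 and 187 CPM with dTAG-13, against 209 and 242 CPM with DMSO (-0.32 ± 0.073, adjusted p = 0.00748). Its groups did not overlap, although the DMSO replicates stood well apart. Chek2 had 42.5 and 47.3 CPM with dTAG-13, against 54.3 and 59.1 CPM with DMSO (-0.34 ± 0.0922, adjusted p = 0.0221), and Eme1 fell by 0.26. All 5 genes that fell here also fell in the GABPA line. Faap100 had 39 and 37.6 CPM with dTAG-13, against 30.8 and 31.8 CPM with DMSO (0.29 ± 0.081, adjusted p = 0.0236). Mre11a also rose (0.26). The deepest falls of the GABPA line, in Fance and Mus81, were not called here with all libraries. Fance had 16.5 and 18.6 CPM with dTAG-13, against 25.7 and 18.1 CPM with DMSO, and its groups overlapped (-0.34 ± 0.14, adjusted p = 0.138). Mus81 had 11.5 and 10.4 CPM with dTAG-13, against 14.3 and 12.4 CPM with DMSO (-0.29 ± 0.116, adjusted p = 0.123). With dTAG-13 replicate 1 omitted Rad51d was the 1 gene called, and with dTAG-13 replicate 2 omitted Rad51d, Fanci and Chek2 were the 3. With DMSO replicate 1 omitted the adjusted p of Fancf, Faap100, Mre11a and Eme1 was 0.112, 0.0731, 0.0771 and 0.0542. With DMSO replicate 2 omitted that of Chek2 was 0.0618 and 9 genes were called, now also Fance (-0.56, adjusted p = 0.00298), Mus81 (-0.39, 0.0495) and Rad51c (0.30, 0.045). Fance was called without the filter on low counts too (-0.35, adjusted p = 0.0309). Top3a was called with DMSO replicate 1 omitted (-0.24, adjusted p = 0.0449), as was Fancm (-0.27, 0.0249). By DESeq2 the adjusted p of Fancf was 0.054.

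Loss of GABPB1 alone left 39 of 42 genes uncalled, with 1 lower (2.38%) and 2 higher (4.76%), where 5.46% of all genes fell and 1.28% rose. Fanci had 108 and 112 CPM with dTAG-13, against 133 and 135 CPM with DMSO (-0.28 ± 0.0732, adjusted p = 0.0291). Rad51c had 31 and 32.2 CPM with dTAG-13, against 25.6 and 24.3 CPM with DMSO (0.34 ± 0.087, adjusted p = 0.0229). Faap100 had 41.2 and 41.9 CPM with dTAG-13, against 35 and 33.2 CPM with DMSO (0.28 ± 0.0762, adjusted p = 0.0317). The groups did not overlap for these 3 genes, as the rule for naming them required. Fance had 22.1 and 21.5 CPM with dTAG-13, against 21 and 23.5 CPM with DMSO (-0.03), and Mus81 was not called either (-0.05). None was called once any 1 of the 4 libraries was omitted, with adjusted p between 0.0969 and 0.284. With all groups in the fit, Fanci was thus the 1 gene called lower in all 3 lines, and Faap100 the 1 called higher in all 3. With the 4 libraries of this line fitted alone, Rad51d (-0.29, edgeR adjusted p = 0.00498) and Eme1 (-0.22, 0.0026) were called lower too. Both were also lower in the other lines. That fit further called Top3a lower and Rad50, Mre11a, Fanca and Brca2 higher.

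The response to loss of GABPA was then tested against that of the other lines. It was lower than the response to loss of both GABPB subunits for 6 of 42 genes and higher for 2, where the difference was lower for 10.7% and higher for 10.1% of all genes. Top3a fell by 0.76 in the GABPA line and had -0.20 in the GABPB1/GABPB2 line, a difference of -0.55 ± 0.101 (edgeR, adjusted p = 0.000774). Rad50 had 0.67 in the GABPA line and 0.15 in the GABPB1/GABPB2 line (0.52 ± 0.0969, adjusted p = 0.0009). Fanci differed by -0.54 ± 0.107 (adjusted p = 0.00161). Fance differed by -0.92 ± 0.201 (adjusted p = 0.00323), with -1.26 in the GABPA line and -0.34 in the GABPB1/GABPB2 line. Mus81, Rad54l, Wdr48 and Slx4 were the other genes called (-0.73, -0.34, -0.33 and 0.48). For Rad51d and Fancf no difference was called, with 0.14 ± 0.16 (adjusted p = 0.597) and -0.08 ± 0.241 (adjusted p = 0.872), errors that leave room for sizeable differences. Without DMSO replicate 2 of the GABPB1/GABPB2 line, 13 genes were called. For Wdr48 the adjusted p was 0.132 and 0.0912 with replicate 1 of DMSO or of dTAG-13 in the GABPA line omitted. With dTAG-13 replicate 2 of the GABPB1/GABPB2 line omitted it was 0.0696 for Wdr48 and 0.0757 for Slx4.

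Against the GABPB1 line the response to loss of GABPA was lower for 9 of 42 genes and higher for 2, where 13.3% of all genes were lower and 12.5% higher. Fance had -1.26 in the GABPA line and -0.03 in the GABPB1 line, a difference of -1.23 ± 0.193 (edgeR, adjusted p = 0.000135). Mus81 had -1.02 in the GABPA line and -0.05 in the GABPB1 line (-0.96 ± 0.161, adjusted p = 0.000244). Top3a differed by -0.58 ± 0.099 (adjusted p = 0.000298), and Fanci by -0.58 ± 0.108 (adjusted p = 0.000665). Fance and Mus81 had the largest differences among the 42 genes. Each difference contains the response in the GABPA line, where these genes had the deepest falls, so this ranking is no separate result. Rad50 and Slx4 were higher (0.51 and 0.40), and Brip1, Wdr48, Rad54l, Fancm and Bard1 were lower by -0.48 to -0.32. The calls of Slx4, Bard1, Fancm and Brip1 did not hold with every library omitted in turn, with adjusted p of 0.0558 to 0.15 where they failed. For Slx4 those libraries were DMSO replicate 1 and dTAG-13 replicate 1 of the GABPA line and each of the 4 GABPB1 libraries. For Bard1 and Fancm they were both DMSO replicates and dTAG-13 replicate 1 of the GABPA line, with dTAG-13 replicate 1 of the GABPB1 line for Bard1 as well, and for Brip1 they were DMSO replicate 2 and dTAG-13 replicate 1 of the GABPA line.

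SLAM-seq followed newly made RNA in the GABPA line at 1, 2, 4 and 12 h. The share of reads with conversions differed between these times. In DMSO libraries it was 5.44% and 6.08% at 1 h, 10.4% and 11.3% at 2 to 4 h, and 14.1% and 14.0% at 12 h. The pool of converted reads was thus not the same at each time, which limits comparisons between times. After 1 h no member was called by edgeR or by DESeq2, where 1.72% of all genes were lower and 0.0567% higher, and 2 members had an unadjusted p under 0.05. Adjustment for SLAM-seq was over 15887 genes. The smallest p belonged to Fance, with 4.55 and 13.7 CPM of converted reads with dTAG-13, against 30.2 and 11.6 CPM with DMSO (-1.19 ± 0.521, adjusted p = 0.396). The libraries of its groups overlapped. Xrcc2 had 24.6 and 14.7 CPM with dTAG-13, against 8.62 and 11.6 CPM with DMSO (0.96 ± 0.434, adjusted p = 0.418). Top3a had 24.6 and 29.4 CPM with dTAG-13, against 33.4 and 41 CPM with DMSO (-0.47 ± 0.297, adjusted p = 0.613). These levels rest on few reads. The median number of converted reads per member in the 1 h groups was 47 with dTAG-13 and 48 with DMSO, and the median standard error of a log2 fold change was 0.258. At this depth even Fance at -1.19 and Xrcc2 at 0.96 did not pass the test.

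After 2 h and 4 h no member was called by edgeR or DESeq2 either, where 3.21% and 3.91% of all genes were lower and 0.145% and 0.113% higher. Unadjusted, 3 members at 2 h and 5 at 4 h had a p under 0.05. Rad51d had the smallest p at both times. It had 12.3 and 13.6 CPM of converted reads after 2 h of dTAG-13, against 20.4 and 29.6 CPM with DMSO (-0.96 ± 0.338, adjusted p = 0.156). After 4 h of dTAG-13 it had 12.8 and 8.78 CPM, against the same DMSO libraries (-1.24 ± 0.366, adjusted p = 0.0593). Both groups lay below DMSO without overlap. At 4 h Rad51d was called without the filter on low counts (-1.33, adjusted p = 0.0386), and Top3a was called when all reads were counted (-0.65, adjusted p = 0.0407). By all reads Top3a was the 1 member called at 4 h, where 2.1% of all genes were lower and 0.0334% higher, and no member was called at 1 h or 2 h. At 1 h 0.00371% of all genes were then lower and 0% higher, and at 2 h 0.211% lower and 0.00371% higher.

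After 12 h, 9 members were lower (21.4%) and none higher, where 18.3% of all genes were lower and 12.3% higher. The median log2 fold change of the 42 genes was -0.27, against 0.04 over all genes, and it was -0.08 with dTAG-13 replicate 2 omitted and -0.14 with DMSO replicate 1 omitted. Faap24, which pairs with FANCM, had 24.1 and 18.7 CPM of converted reads with dTAG-13, against 59.6 and 60 CPM with DMSO (-1.45 ± 0.237, adjusted p = 4.7e-05). Wdr48 had 18.1 and 13 CPM with dTAG-13, against 41.6 and 37 CPM with DMSO (-1.29 ± 0.268, adjusted p = 0.000725). These 2 calls held under every alternative and with every library left out. Mus81 had 8.91 and 6.24 CPM with dTAG-13, against 16.6 and 16.7 CPM with DMSO (-1.08 ± 0.352, adjusted p = 0.0226). Top3a had 23.1 and 15.3 CPM with dTAG-13, against 41.6 and 40.1 CPM with DMSO (-1.03 ± 0.25, adjusted p = 0.00279). Rad51d had 13.5 and 11.9 CPM with dTAG-13, against 26.8 and 25.7 CPM with DMSO (-1.03 ± 0.305, adjusted p = 0.0128). In each of these 5 genes both dTAG-13 libraries lay below both DMSO libraries, as the rule for naming them required. Fanci, Nbn, Rad54l and Chek1 fell by 0.83, 0.82, 0.71 and 0.62 on the log2 scale.

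Several of these calls depended on single libraries. With dTAG-13 replicate 2 omitted 3 of the 42 genes were called, with DMSO replicate 2 omitted 4 were, and with DMSO replicate 1 omitted 5 were. Mus81 was not called with any of these 3 libraries omitted (adjusted p of 0.095 to 0.134), nor was Rad54l (0.0557 to 0.153). Rad51d was not called with any 1 of the 4 libraries omitted (0.0561 to 0.0901). With dTAG-13 replicate 2 omitted Top3a, Nbn and Fanci had an adjusted p of 0.0512, 0.072 and 0.087. Nbn had 0.105 with DMSO replicate 1 omitted, and Fanci and Chek1 had 0.068 and 0.0812 with DMSO replicate 2 omitted. Chek1 had 0.146 with dTAG-13 replicate 1 omitted. DESeq2 did not call Rad51d, Mus81 or Rad54l (0.0621, 0.11 and 0.0671), and without the filter on low counts Mus81 had 0.0507.

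**Figure D3:**
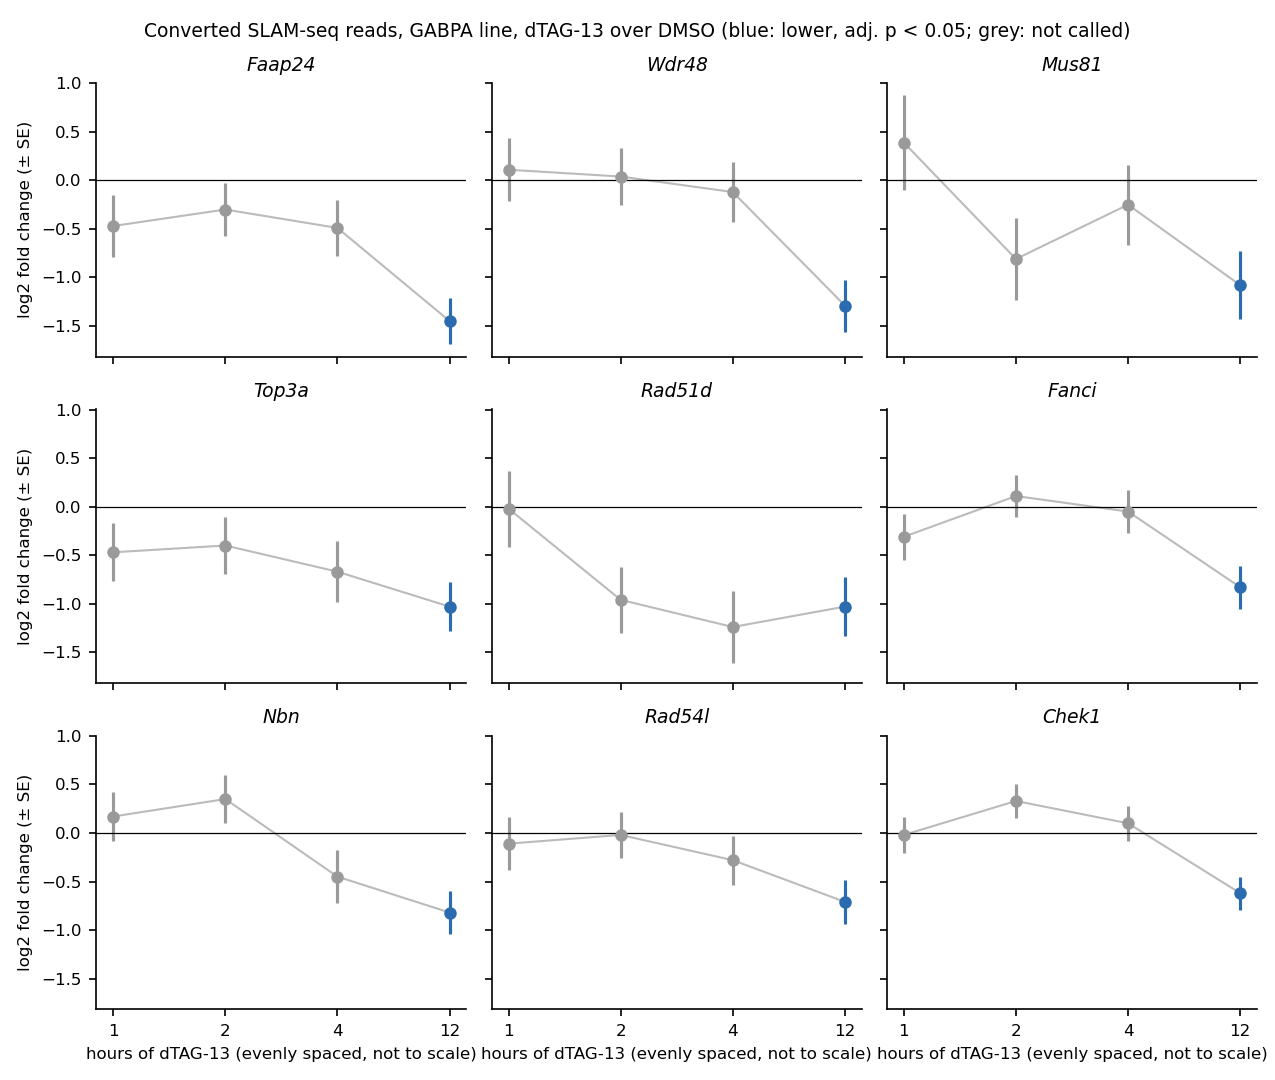
Log2 fold change of converted SLAM-seq reads (points, bars are SE) in the GABPA line, dTAG-13 over DMSO, at 1, 2, 4 and 12 h on an evenly spaced axis, for the 9 genes called lower at 12 h. Rad51d stood at -0.96 after 2 h and -1.24 after 4 h, while Wdr48 stood at 0.11 after 1 h and -1.29 after 12 h; the 2 h and 4 h points share their DMSO libraries.

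The change between times was tested for 12 h against 1 h, times that differed in the share of converted reads. Wdr48 was the 1 gene called, with -1.29 at 12 h and 0.11 at 1 h, a difference of -1.40 ± 0.42 (edgeR, adjusted p = 0.0442), where 4.7% of all genes were lower and 2.14% higher. It was not called by DESeq2 (adjusted p = 0.0866) or without the filter on low counts (0.0569). Nor was it called with DMSO replicate 1 or either dTAG-13 replicate of 1 h omitted (0.0819 to 0.171), or with either DMSO replicate or dTAG-13 replicate 2 of 12 h omitted (0.0702 to 0.142). By all reads 18 members were lower at 12 h than at 1 h and 1 was higher, where 20.2% of all genes were lower and 16.1% higher.

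At 12 h both assays could be set side by side. Fanci, Wdr48, Rad51d, Rad54l, Mus81 and Top3a were lower in both. A further 10 genes were called lower in RNA-seq alone, and Faap24, Nbn and Chek1 in converted reads alone. In RNA-seq Faap24 had -0.26 (adjusted p = 0.16), Nbn -0.02 and Chek1 -0.13. None of the 5 genes that rose in RNA-seq was called in converted reads, where Rad50 had 80.1 and 65.2 CPM with dTAG-13, against 54.5 and 55.5 CPM with DMSO (0.42 ± 0.204, adjusted p = 0.127). A difference between the assays was not tested, as they differ in library preparation and counting. When all SLAM-seq reads of the 12 h libraries were counted instead of converted reads, 27 members were lower and 1 higher, where 27.6% of 26957 genes were lower and 29.8% higher. The members' median was then -0.57 and that of all genes 0.14. Mus81 had 4.97 and 3.62 CPM of all reads with dTAG-13, against 16.8 and 14.6 CPM with DMSO (-1.84 ± 0.208, adjusted p = 4.2e-06), the largest fall. Fancg, Rad51d and Faap24 had -1.44, -1.43 and -1.38, and the gene called higher was Rad51b (0.50 ± 0.14, adjusted p = 0.00731). Fanci, called lower by RNA-seq and converted reads, was not called by all reads (-0.19, adjusted p = 0.258).

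**Figure D4:**
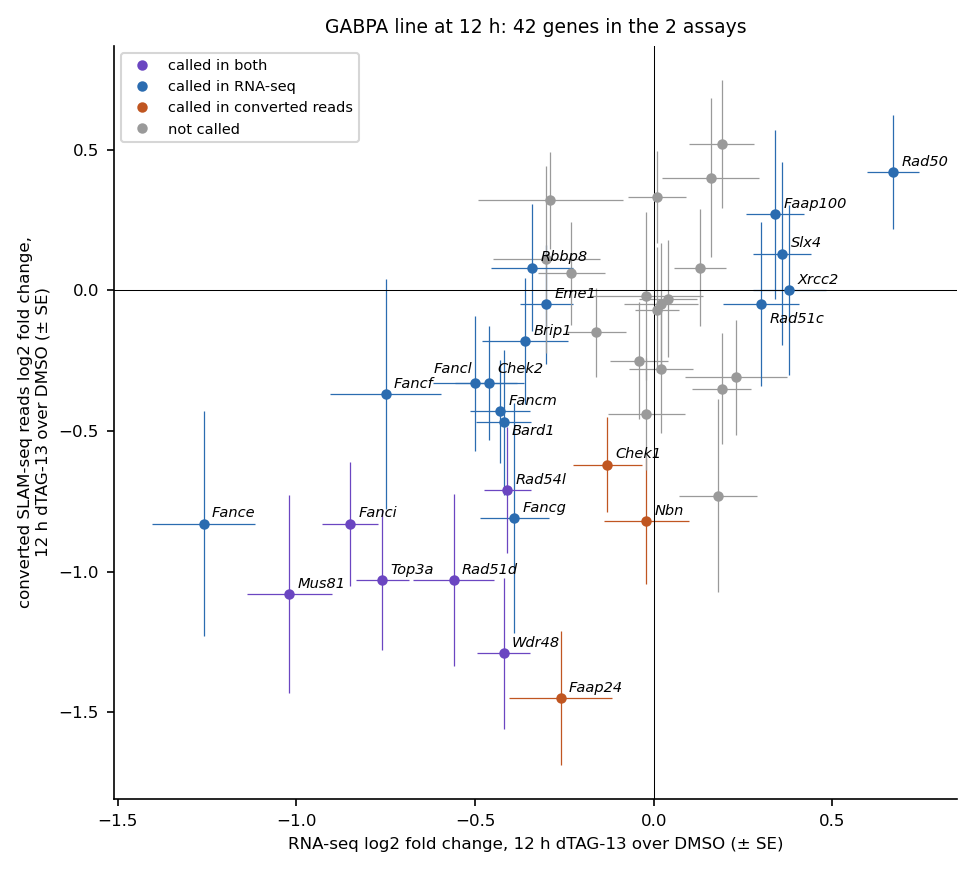
Log2 fold change in converted SLAM-seq reads (vertical) against that in RNA-seq (horizontal) for the 42 genes in the GABPA line, 12 h of dTAG-13 over DMSO, with SE as bars and colours for the assay in which a gene was called. The 6 genes called in both lie at the lower left, Faap24, Nbn and Chek1 lie to their right, nearer 0 on the RNA-seq axis, and Rad50 lies at 0.67 in RNA-seq and 0.42 in converted reads.

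Other genes of the same pathways, from lists that hold none of the 42, were measured in the same fits. Their counts stand beside 21.9% of all genes lower and 24.6% higher in the GABPA line. Of 23 other homologous recombination genes, 14 fell and 3 rose after loss of GABPA in RNA-seq (median -0.23). Mcm8, a helicase of recombination synthesis, had 7.12 and 7.37 CPM with dTAG-13, against 32.2 and 28.8 CPM with DMSO (-2.07 ± 0.109, adjusted p = 9.75e-11). Gen1, a resolvase of joined DNA molecules, had 3.59 and 4.72 CPM with dTAG-13, against 17.5 and 16.7 CPM with DMSO (-2.03 ± 0.163). Both falls were deeper than those of any of the 42 genes, and Helq fell as well (-1.11). Of 14 other Fanconi and crosslink repair genes 5 fell and 2 rose. Faap20, a core complex subunit, had 4.89 and 5.19 CPM with dTAG-13, against 29.4 and 33.2 CPM with DMSO (-2.63 ± 0.126). Mad2l2, which serves translesion synthesis, fell by 1.75, and Rev1, a translesion polymerase, rose by 1.28. Of 12 genes of the BRCA1-A complex and the TP53BP1 axis, 2 fell and 5 rose. Rnf168, a ubiquitin ligase at breaks, had -1.79 and Shld1 had -2.56, while Shld2 of the same shieldin complex rose by 1.28. Of 10 other checkpoint genes, 2 fell (Topbp1 by 0.83 and Rad1 by 0.88) and 1 rose (Rad9a, 0.24), so the share that fell was near that of all genes. Of 10 end joining genes, 3 fell and 3 rose (median -0.03), and those with the smallest p were Poll at -2.97, Polm at -1.95 and Lig4 at -1.09. In the GABPB1/GABPB2 line, 8 of the 23 other recombination genes fell and 1 rose, beside 9.26% and 3.53% of all genes. In the GABPB1 line 3 of the 23 fell and none rose, beside 5.46% and 1.28% of all genes.

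Cell cycle and stress genes were measured in the same fits. After loss of GABPA in RNA-seq, 25 of 39 S phase genes fell and 2 rose (median -0.33), and 19 of 20 p53 target genes rose and none fell (median 1.45). Of 21 G2 and mitosis genes, 4 fell and 2 rose (median -0.05). These RNA-seq counts stand beside 21.9% of all genes lower and 24.6% higher. The share of G2 and mitosis genes that fell was near that of all genes. In converted reads at 12 h, 27 of the S phase genes fell and none rose, 9 of the G2 and mitosis genes fell and none rose, and 16 of the p53 targets rose and none fell, beside 18.3% of all genes lower and 12.3% higher. The part of these changes in the result for the 42 genes was not tested.

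The lines also differed without dTAG-13, which bears on every comparison of levels between them. Between DMSO libraries of the GABPA line and the GABPB1 line, 18 of 42 genes were lower (42.9%) and 5 higher (11.9%), where 29.7% of all genes were lower and 31.5% higher. Brca1 had 100 and 106 CPM in the GABPA line, against 318 and 311 CPM in the GABPB1 line (-1.60 ± 0.0795, adjusted p = 6.58e-11). Atm had 44.3 and 47.3 CPM in the GABPA line, against 118 and 114 CPM in the GABPB1 line (-1.34 ± 0.101, adjusted p = 7.45e-09). Atr, Rad50 and Fancm had -1.17, -1.03 and -0.99. The differences of Brca1 and Atm exceeded in size the largest RNA-seq response to dTAG-13 of the 42 genes, and all 5 genes around BRCA1 and BRCA2 were called lower. Of these 5, Bard1 (-0.20) was not called with DMSO replicate 1 or 2 of the GABPA line omitted (adjusted p of 0.142 and 0.0609) or with DMSO replicate 2 of the GABPB1 line omitted (0.0586). Rmi2, a small subunit of the BLM complex, had 14.2 and 12.9 CPM in the GABPA line, against 6.14 and 6.95 CPM in the GABPB1 line (1.05 ± 0.15, adjusted p = 1.36e-05). Fancf, Mus81 and Fance, which fell after loss of GABPA, were higher in the untreated GABPA line (0.84, 0.67 and 0.62). Other genes that fell went the other way. Fancm was lower there (-0.99), Fanci had 109 and 114 CPM in the GABPA line, against 133 and 135 CPM in the GABPB1 line, and Top3a had 49.8 and 53.1 CPM, against 70.4 and 68.9 CPM. Rad50, which rose after loss of GABPA, was lower in the untreated GABPA line. For each of these genes the response and the difference between lines use the same DMSO libraries of the GABPA line. An error in those libraries would enter both, and they are not separate results. The 18 lower genes had a median transcript of 4616 bases and the 5 higher ones of 2067 bases, and over all genes the medians were 3693 and 2068 bases. Spearman's rho of transcript length with the fold change was -0.62 over the 42 genes and -0.29 over all genes tested, a description over genes of the same 4 libraries. Other markers moved between the same libraries. Of 12 lineage markers tested, 8 were higher and none lower (median 1.60), with 78.7 to 93.6 TPM summed over 14 genes in the GABPA line and 27.2 to 28.6 TPM in the GABPB1 line, and of 39 S phase genes 27 were higher and 5 lower (median 0.33). Line, culture and library preparation cannot be told apart here, and the part of transcript length, lineage markers and S phase genes in the result was not tested. For the response to dTAG-13 in the GABPA line rho was 0.31 over the 42 genes and 0.12 over all genes.

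**Figure D5:**
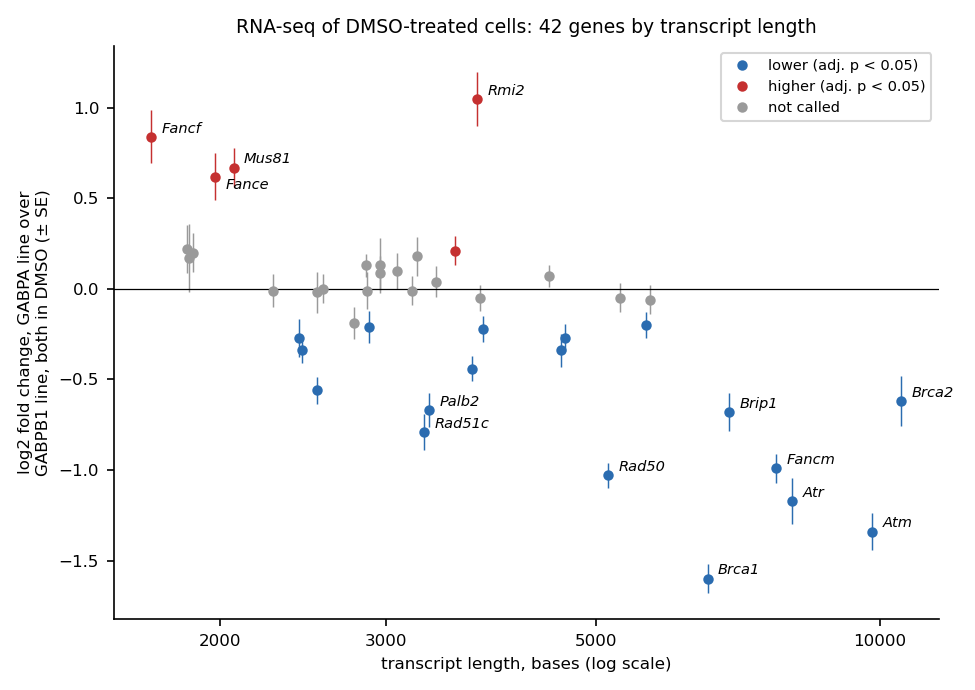
RNA-seq log2 fold change of the 42 genes between DMSO-treated cells of the GABPA line and the GABPB1 line (points, bars are SE) against transcript length in bases on a log scale. Brca1, Atm, Atr, Rad50 and Fancm lie lowest, and Rmi2, Fancf, Mus81 and Fance highest.

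Between DMSO libraries of the GABPB1/GABPB2 line and the GABPB1 line, 7 of 42 genes were lower (16.7%) and 5 higher (11.9%), where 15% of all genes were lower and 15% higher. Fanci had 209 and 242 CPM in the GABPB1/GABPB2 line, against 133 and 135 CPM in the GABPB1 line (0.75 ± 0.0729, adjusted p = 9.96e-07). Brca2, Rad50, Blm and Rmi1 were also higher (0.31 to 0.68). Rmi1 was not called with either DMSO replicate of the GABPB1 line omitted (adjusted p of 0.154 and 0.0528) or with DMSO replicate 2 of the GABPB1/GABPB2 line omitted (0.0518). Xrcc3, which acts with RAD51C, had the largest deficit (-0.49 ± 0.104, adjusted p = 0.00203).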

How the data were processed

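For RNA-seq, the authors deposited expected counts (estimated counts of RSEM 1.3.1 with STAR 2.7.11a, genome mm39, per the submitters' processing notes), TPM and transcript length per gene, other values than counts that served only for levels and lengths. For SLAM-seq, the deposited tables hold counts of all reads and of converted reads per gene interval, made with slamdunk 0.4.3 per the file headers. Expected counts were rounded. Each assay was fitted whole with edgeR 4.0.16 (R 4.3.3): a mean per group, TMM, filterByExpr (minimum count 10, total 15), the quasi-likelihood test, Benjamini-Hochberg adjustment over 16396 or 15887 genes, called at an adjusted p under 0.05. CPM values use TMM library sizes, and SE is the absolute log2 fold change over the square root of F. Error was pooled over all groups of an assay (common coefficient of variation 0.0608 and 0.143). The script was tested on simulated data. Values by library were given for the 10 largest non-overlapping changes in the GABPA line, 5 in each other comparison, and the smallest p in differences. A few more were added after their values were seen. Members and lists were chosen with earlier results of these data known. Alternatives were DESeq2 1.42.0, its size factors, other filters, a replicate block, all reads, the libraries of a comparison alone and each library left out. Samples of other assays (66 of 92) were not used.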

Additional observations from a re-analysis of the deposited data

Results flagged for a closer look

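The response to 12 h of dTAG-13 differed between lines, by a test of the difference itself, for the following genes (log2 differences, edgeR, adjusted over all genes). For the GABPA line minus the GABPB1/GABPB2 line, the difference was -0.92 for Fance, -0.73 for Mus81, -0.55 for Top3a, -0.54 for Fanci, -0.34 for Rad54l and -0.33 for Wdr48. It was 0.52 for Rad50 and 0.48 for Slx4.

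For the GABPA line minus the GABPB1 line, the difference was -1.23 for Fance, -0.96 for Mus81, -0.58 for Top3a, -0.58 for Fanci, -0.48 for Brip1, -0.42 for Wdr48, -0.36 for Rad54l, -0.36 for Fancm and -0.32 for Bard1. It was 0.51 for Rad50 and 0.40 for Slx4. Both sets use the same libraries of the GABPA line.

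In SLAM-seq of the GABPA line, the response at 12 h minus that at 1 h was -1.40 for Wdr48. With 2 libraries per group, no group could be searched for a library far from the others.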

How the results depend on the processing

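Leaving out each library in turn, the number of the 42 genes called was 18 to 20 in RNA-seq of the GABPA line, 1 to 9 in the GABPB1/GABPB2 line and 0 to 0 in the GABPB1 line. In SLAM-seq it was 0 to 0 at 1 h, 0 to 0 at 2 h, 0 to 1 at 4 h, 3 to 8 at 12 h and 0 to 1 for 12 h minus 1 h. It was 6 to 13 for the GABPA minus the GABPB1/GABPB2 response, 8 to 13 for the GABPA minus the GABPB1 response, 17 to 20 for DMSO libraries of the GABPA over the GABPB1 line and 9 to 13 for those of the GABPB1/GABPB2 over the GABPB1 line. With a comparison's libraries alone, 10 genes were called in the GABPB1 line against 3 with all groups in the fit, and 2 in the GABPB1/GABPB2 line against 7. With all SLAM-seq reads, 1 gene was called at 4 h, 28 at 12 h and 19 for 12 h minus 1 h, against 0, 9 and 1 with converted reads. Without the filter on low counts the numbers were 1 at 4 h and 0 for 12 h minus 1 h, and by DESeq2 the last was also 0. With all reads Blm, Mre11a and Rbbp8 turned to -0.33, -0.52 and -0.36 at 12 h, and Fance to -1.20 for 12 h minus 1 h. The cause was not tested. Among values of single genes under other settings, 3127 kept their side and direction, 62 passed the threshold anew, 25 no longer passed and 4 turned.

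Same-numbered libraries share only a number, since 2 pairs per comparison and labels without a shared batch do not pair them (correlations of deviations of -0.114 to 0.294). A replicate block gave 22 called genes in RNA-seq of the GABPA line against 21 and changed no other count. The SLAM-seq results rest on medians of 42 to 102 converted reads per gene, which limits them to large changes.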
